A study of Mus musculus with 2 samples.

Results

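The genes described here are 8 immediate early genes, *Fos*, *Fosb*, *Jun*, *Junb*, *Egr1*, *Atf3*, *Ier2* and *Dusp1*, chosen by their symbols among the 32285 genes of the deposited tables. They were measured by Visium, an array of barcoded spots that captures RNA from a tissue section, each spot covering a small region that can hold several cells. One transverse heart section came from a C57BL/6 mouse lacking PD1 on both alleles (PD1 KO) and 1 from a C57BL/6 mouse with 1 PD1 allele (PD1 Het). In both animals the left anterior descending artery was tied on postnatal day 2 and the heart was taken after 7 days. Neither a wild-type nor an uninfarcted section was analysed here. With 1 section per genotype, genotype, animal, section and library cannot be told apart, and no test or p-value was computed.

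Immediate early genes are transcribed within minutes of a stimulus, from factors that are already present in the cell, and their mRNAs are short-lived. *Fos*, *Fosb*, *Jun* and *Junb* encode basic leucine zipper proteins that pair to form the AP-1 transcription factor, *Atf3* encodes a related stress-induced factor, and *Egr1* encodes a zinc finger factor induced through serum response factor. *Ier2* encodes a nuclear early response protein, and *Dusp1* encodes a phosphatase that removes phosphate from MAP kinases and so limits the signal that induces the others. In heart tissue these mRNAs are known to respond to stretch, ischaemia and growth factors, and also to handling of the tissue before freezing.

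The PD1 KO section kept 851 of 859 spots with at least 500 UMIs (unique molecule counts) and 23520499 UMIs, and the PD1 Het section kept 811 of 812 spots and 12814494 UMIs. The median spot held 27134 UMIs in PD1 KO and 15475 UMIs in PD1 Het. Mitochondrial transcripts made up 15.9% of UMIs in PD1 KO and 25.6% in PD1 Het. *Pdcd1*, the PD1 gene, had 0 UMIs in both sections, which allows up to 0.128 CPM (UMIs per 1000000 UMIs of the section) in PD1 KO and 0.234 CPM in PD1 Het, so the genotype could not be checked. *Xist* had 1 UMI in PD1 KO and 541 in PD1 Het, and Y-linked genes had 2900 and 1, so the sexes of the animals differed along with the genotype. The ventricular cardiomyocyte markers summed to 83473 CPM in PD1 KO and 83053 CPM in PD1 Het, as the tissue label states.

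RefSeq promoter windows (GRCm38.p6, 250 bases before to 50 after the annotated start) were available for 6 of the 8 genes, all but *Egr1* and *Ier2*. The 250 bases before the start of *Fos* and *Junb*, the pair of these with the largest ratios between sections, and of *Dusp1*, which holds a full cyclic AMP response element (CRE), are shown 5′ to 3′ on the gene's strand. Capitals mark matches to the CRE, TGACGTCA. They also mark the short ATF/CRE site, TGACG, which was added after the windows had been read. The letters TATAAA of the TATA box are marked too, and each motif was searched on both strands. The stretches lie at chr12:85473640-85473889 on the plus strand (*Fos*), chr8:84978749-84978998 on the minus strand (*Junb*) and chr17:26508473-26508722 on the minus strand (*Dusp1*).
Fos: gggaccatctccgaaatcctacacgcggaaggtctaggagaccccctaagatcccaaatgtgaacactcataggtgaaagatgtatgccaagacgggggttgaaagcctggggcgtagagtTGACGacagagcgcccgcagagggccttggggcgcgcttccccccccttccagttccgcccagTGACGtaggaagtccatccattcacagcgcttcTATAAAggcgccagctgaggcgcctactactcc
Junb: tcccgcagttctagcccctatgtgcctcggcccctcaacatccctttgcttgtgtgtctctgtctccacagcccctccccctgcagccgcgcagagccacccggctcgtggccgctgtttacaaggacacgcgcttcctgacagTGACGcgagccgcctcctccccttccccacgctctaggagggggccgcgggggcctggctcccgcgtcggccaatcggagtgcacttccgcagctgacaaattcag
Dusp1: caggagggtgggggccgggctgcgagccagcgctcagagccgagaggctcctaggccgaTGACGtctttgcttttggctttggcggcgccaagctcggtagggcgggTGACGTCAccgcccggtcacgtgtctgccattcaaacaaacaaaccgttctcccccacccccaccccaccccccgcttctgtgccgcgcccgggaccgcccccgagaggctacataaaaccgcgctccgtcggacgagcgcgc
The *Fos* stretch has TGACG from position -129 to -125 and from -66 to -62 relative to the start, and TATAAA from -33 to -28. The *Junb* stretch has TGACG from -106 to -102, and TATAAA follows it directly, at positions 1 to 6 after the annotated start (not shown). The *Dusp1* stretch has TGACGTCA from -143 to -136, which includes 1 TGACG match on each strand, and a further TGACG from -191 to -187.

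Over the full 300-base windows, searched on both strands, TGACG was in 5 of the 6 windows (*Fos*, *Fosb*, *Junb*, *Atf3* and *Dusp1*) and in 20.8% of the 32851 windows of all genes. The full CRE, TGACGTCA, was in 1 of 6, that of *Dusp1*, and in 1.79% of all windows. TATAAA was in the windows of *Fos* and *Junb* and in 13.6% of all windows, and GCGNGGGCG, the letters bound by EGR factors, was in that of *Fosb* and in 5.55% of all windows. The AP-1 letters, TGA and TCA with 1 base of any kind between them (7.81% of all windows), and the CArG box of serum response factor (1.63%) matched none of the 6. Sequence outside these windows, and the promoters of *Egr1* and *Ier2*, were not searched, so a missing match holds for these windows only. These matches are descriptions of letters, not of bound sites.

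*Fos* had the largest ratio between the sections among the 8 genes. It had 256 UMIs in the PD1 KO section and 26 UMIs in the PD1 Het section, or 10.9 CPM (95% Poisson interval 9.59 to 12.3) in PD1 KO and 2.03 CPM (1.33 to 2.97) in PD1 Het. The CPM ratio was 5.36 (95% exact conditional interval 3.58 to 8.37). All intervals cover counting error only, not the variation between animals. The median gene, over 11455 genes with 100 or more UMIs summed over the sections, was itself 1.26-fold higher in PD1 KO (log2 0.33), so ratios are also given relative to it. Relative to the median gene the log2 ratio of *Fos* was 2.09 (1.51 to 2.73), and 0.148% of those genes had a higher one. *Fosb*, the close relative of *Fos*, had only 13 UMIs in PD1 KO and 4 in PD1 Het, or 0.553 and 0.312 CPM, and with a ratio interval of 0.547 to 7.45 the counts are too few to show a difference.

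*Junb* and *Jun*, whose proteins pair with FOS, were also higher in PD1 KO. *Junb* had 453 UMIs in PD1 KO and 93 in PD1 Het, 19.3 CPM (17.5 to 21.1) against 7.26 CPM (5.86 to 8.89), a ratio of 2.65 (2.12 to 3.35) and a relative log2 ratio of 1.08 (0.75 to 1.41). *Jun* had 2125 UMIs in PD1 KO and 611 in PD1 Het, 90.3 CPM (86.5 to 94.3) against 47.7 CPM (44.0 to 51.6), a ratio of 1.89 (1.73 to 2.08). Its relative log2 ratio was 0.59 (0.46 to 0.72), which is 1.51-fold and so lies on the 1.5-fold line used for counting. The annotated 3′ end of *Junb* overlaps *Prdx2* on the other strand, a far more abundant mRNA with 560 CPM in PD1 KO and 610 CPM in PD1 Het, and *Jun* overlaps the antisense *Junos* (19 UMIs in PD1 KO, 5 in PD1 Het). The strand setting of the counting is not given in the sources used here, so reads of these overlapping partners cannot be told apart.

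*Egr1* stood closest to *Fos* in its ratio. It had 1403 UMIs in PD1 KO and 207 in PD1 Het, 59.7 CPM (56.6 to 62.9) against 16.2 CPM (14.0 to 18.5), a ratio of 3.69 (3.19 to 4.29) and a relative log2 ratio of 1.55 (1.34 to 1.77). The intervals of *Fos* and *Egr1* overlap each other, as do those of *Egr1* and *Junb* at their edges. *Dusp1* had 2213 UMIs in PD1 KO and 614 in PD1 Het, 94.1 CPM (90.2 to 98.1) against 47.9 CPM (44.2 to 51.9). Its ratio of 1.96 (1.79 to 2.15) and relative log2 ratio of 0.64 (0.51 to 0.77) lay beside those of *Jun*. The annotation of *Dusp1* overlaps *Ergic1* on the other strand (1037 UMIs in PD1 KO, 575 in PD1 Het).

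*Ier2* and *Atf3* did not stand apart from the median gene. *Ier2* had 1530 UMIs in PD1 KO and 680 in PD1 Het, 65.0 CPM (61.8 to 68.4) against 53.1 CPM (49.2 to 57.2), a ratio of 1.23 (1.12 to 1.34). Its relative log2 ratio was -0.04 (-0.17 to 0.09), with an upper limit far under the 1.5-fold line. *Atf3* had 122 UMIs in PD1 KO and 50 in PD1 Het, 5.19 CPM (4.31 to 6.19) against 3.90 CPM (2.90 to 5.14), and a relative log2 ratio of 0.08 (-0.41 to 0.58). The intervals of *Ier2* and *Atf3* do not reach those of *Fos*, *Junb* and *Egr1*.

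**Figure D1:**
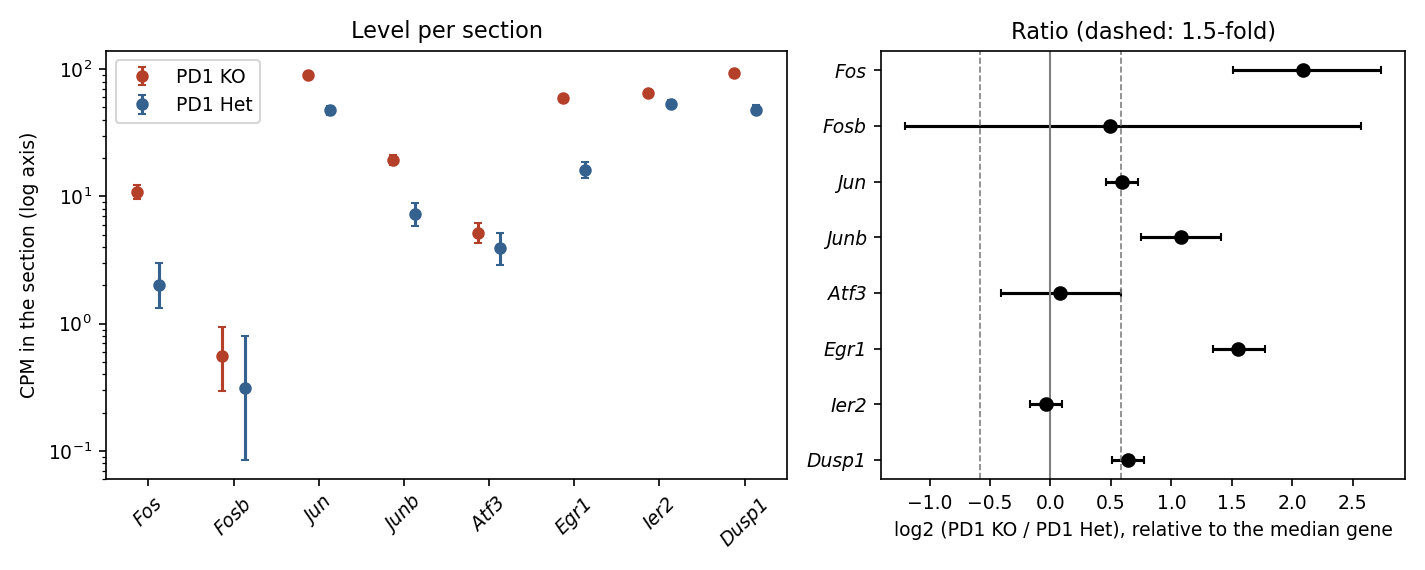
Left, CPM (log axis) of each gene in the PD1 KO and the PD1 Het section with 95% Poisson intervals; right, log2 ratio of PD1 KO over PD1 Het relative to the median gene with its 95% interval and dashed lines at 1.5-fold. *Fos*, *Egr1* and *Junb* lie right of the upper line with their whole interval, *Jun* and *Dusp1* lie on or just past it, and *Ier2* and *Atf3* lie at 0; *Fosb* rests on 17 UMIs.

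Of the 8 genes, 7 had at least 100 UMIs summed over the sections, and 5 of these 7 were at least 1.5-fold above the median gene, against 5.5% of the 11455 genes. None was 1.5-fold below it, against 3.3% of genes. *Fos*, with 26 UMIs in PD1 Het, passed the filter of 100 UMIs through its 256 UMIs in PD1 KO. At 2-fold, 3 of the 7 remained above (*Fos*, *Egr1* and *Junb*), against 1.07% of genes above and 0.533% below. The CPM of the 8 genes summed to 345 in PD1 KO and 178 in PD1 Het, a ratio of 1.93 (1.85 to 2.03) and a relative log2 ratio of 0.62 (0.55 to 0.69). Some other gene groups were also higher in PD1 KO. Stressed cardiomyocyte genes summed to 4496 CPM in PD1 KO and 2114 CPM in PD1 Het. Scar matrix genes summed to 9420 and 6732 CPM, and macrophage markers to 426 and 302 CPM. The median relative log2 ratios of these lists were 0.35, 0.31 and 0.17. Fibroblast markers (2219 and 2029 CPM) and endothelial markers (3325 and 2762 CPM) had negative medians, -0.19 and -0.13. The part of these tissue differences in the result was not tested. In spots of mixed cells, fewer cells of a type and less RNA per cell cannot be told apart.

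The mitochondrial share of a spot moved with these levels within each section. At 10000 UMIs per spot, the summed UMIs of the 8 genes had a Pearson r of -0.31 with mitochondrial UMIs over 839 spots in PD1 KO and of -0.21 over 759 spots in PD1 Het (mean of 20 random draws). At a fixed depth more mitochondrial UMIs leave fewer for every other gene, so part of this negative r is built in. It was not set beside that of other genes. Spots with like mitochondrial share were therefore compared, an alternative chosen after seeing the data. The ratio of the sum was 1.18 (0.974 to 1.45) where the share was under 10% (201 spots in PD1 KO, 28 in PD1 Het), 1.42 (1.25 to 1.62) from 10 to 15%, 1.60 (1.43 to 1.79) from 15 to 20%, 1.56 (1.40 to 1.73) from 20 to 25% and 1.54 (1.36 to 1.75) from 25 to 30%. The median gene, over genes with at least 30 UMIs in the class, had ratios between 1.03 and 1.06 in these 5 classes, so relative to it the sum was 1.15-fold, 1.35-fold, 1.51-fold, 1.47-fold and 1.48-fold higher in PD1 KO, beside 1.54-fold over whole sections. Thus the difference in the sum was smallest, and its interval included 1, in the class with the lowest mitochondrial share, to which PD1 Het gave few spots. The tissue of that class also differed between the sections. Scar matrix genes made up 1.46% of its UMIs in PD1 KO and 2.73% in PD1 Het, and ventricular cardiomyocyte markers 8.18% and 5.52%. The part of the mitochondrial share in the differences of whole sections was not tested beyond these classes.

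The genes kept different orders within these classes. *Egr1* was higher in PD1 KO in all 5, with ratios of 1.42, 1.72, 3.29, 2.18 and 2.86 from the lowest share to the highest, though the first interval (0.908 to 2.34) includes 1. *Jun* had ratios between 1.13 and 1.87, *Junb* between 1.41 and 2.33 and *Dusp1* between 1.39 and 1.94, all above 1. Under 10%, though, the intervals of *Jun* (0.766 to 1.73), *Junb* (0.730 to 5.45) and *Dusp1* (0.902 to 2.27) include 1. So does that of *Junb* from 10 to 15% (0.831 to 2.59). *Ier2* turned direction in 4 of the 5 classes, with ratios of 0.742, 0.937, 0.959, 1.04 and 0.871, and each of these intervals includes 1. *Fos* held 108 of its 256 PD1 KO UMIs in the class under 10% and 88 in the class from 10 to 15%, and PD1 Het had 2 *Fos* UMIs in each. These classes held far fewer UMIs in all in PD1 Het. In CPM, *Fos* had 23.2 in PD1 KO and 7.09 in PD1 Het under 10%, and 12.4 and 2.04 from 10 to 15%. From 15 to 20% it had 35 UMIs in PD1 KO and 3 in PD1 Het. In the class from 20 to 25% it had 9 UMIs in PD1 KO and 7 in PD1 Het, a ratio of 0.797 (0.264 to 2.52), and in the class from 25 to 30% it had 16 and 6, a ratio of 3.57 (1.33 to 11.1). Spots with a share under 15% held 76.6% of the *Fos* UMIs of PD1 KO, beside 53.7% of its spots and 50.03% of all its UMIs. In PD1 Het they held 4 of the 26 *Fos* UMIs (15.4%), beside 13.8% of its spots and 9.84% of its UMIs.

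**Figure D2:**
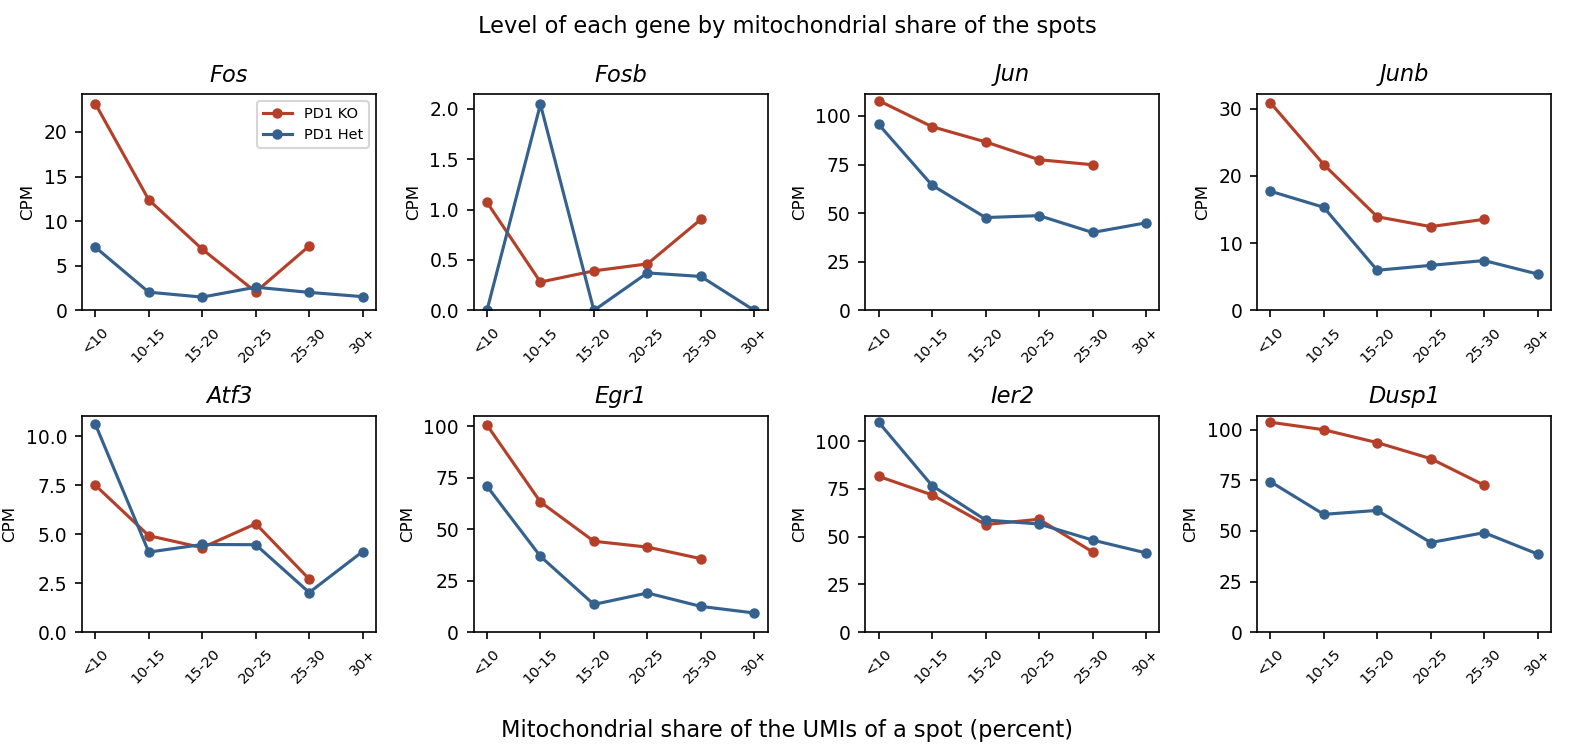
CPM of each gene (each panel with its own linear axis from 0) in spots grouped by the mitochondrial share of their UMIs, in percent, for the PD1 KO and the PD1 Het section; classes with fewer than 20 spots are not drawn. *Fos* falls from 23.2 CPM under 10% to 2.08 CPM from 20 to 25% in PD1 KO, the *Egr1*, *Jun* and *Dusp1* lines of PD1 KO lie above those of PD1 Het throughout, and the *Ier2* lines cross.

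Other genes of the pathway were counted over lists, with at least 30 UMIs per gene, beside 7.04% of 13163 genes above and 4.95% below the 1.5-fold line. Among 41 other immediate early genes, 9 were above and 0 below, with a median relative log2 ratio of 0.30, against 0.00110 over all genes. *Nr4a1*, an orphan nuclear receptor, had 29.3 CPM in PD1 KO and 9.68 CPM in PD1 Het, a relative log2 ratio of 1.27 (0.99 to 1.56). *Ccn1*, a matricellular protein induced through serum response factor and YAP, had 47.3 CPM in PD1 KO and 16.1 CPM in PD1 Het, a relative log2 ratio of 1.22 (1.01 to 1.45). *Thbs1*, which encodes thrombospondin 1, had 33.8 CPM in PD1 KO and 11.5 CPM in PD1 Het, a relative log2 ratio of 1.22 (0.96 to 1.48). The most abundant members of the list did not reach the line, since *Rhob* had a relative log2 ratio of 0.26, *Id3* of 0.01 and *Klf2* of -0.13.

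Among 13 other AP-1 and ATF family genes, 1 was above and 0 below the line, with a median relative log2 ratio of 0.08. *Jund*, a JUN gene that is not an immediate early gene in most cells, had 183 CPM in PD1 KO and 202 CPM in PD1 Het, a relative log2 ratio of -0.47 (-0.55 to -0.40), so the JUN genes did not differ as 1 group. *Atf2* stood at 0.42, *Atf4* at -0.06 and *Nfe2l1* at -0.17. Among 24 kinases and factors upstream of these genes, 2 were above and 0 below, *Map2k1* at 0.66 and the growth factor receptor gene *Egfr* at 0.64 on the relative log2 scale. *Map2k2*, the partner kinase gene of *Map2k1*, stood at -0.49 and *Mapk3*, the ERK1 gene, at -0.30.

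Feedback genes that limit the same signal were counted with the MAP kinase phosphatases. Of 15 measured, 3 were above and 0 below the line, with a median relative log2 ratio of 0.25. They were the Sprouty genes *Spry2* and *Spry4*, inhibitors of receptor tyrosine kinase signalling, both at 0.84, and *Dusp6*, a phosphatase for ERK, at 0.61. *Spry1* stood at 0.42, *Nab1*, a corepressor of EGR factors, at 0.33 and *Dusp3* at -0.25. Of 15 glucocorticoid-responsive genes, a list that includes *Dusp1* itself, 3 were above and 0 below, with a median of 0.18. *Pdk4*, a kinase that restrains glucose oxidation, had 213 CPM in PD1 KO and 36.5 CPM in PD1 Het (relative log2 ratio 2.21) and *Mt2*, a metallothionein, had 23.5 and 8.74 CPM (1.096), while *Zfp36* stood at 0.39, *Mt1* at 0.16 and *Tsc22d3* at 0.07. Of 14 heat shock genes, which also respond to tissue stress, 0 were above and 0 below, with a median of -0.05, and *Hspa1b* had 3.66 CPM in PD1 KO and 3.36 CPM in PD1 Het. The relative log2 ratio was -0.37 for *Hspa8*, -0.19 for *Dnajb1*, -0.04 for *Cryab* and 0.01 for *Hsp90ab1*.

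Evenness over spots was compared after every spot had been thinned at random to 10000 UMIs, which left 839 spots in PD1 KO and 759 in PD1 Het. A spot then held 3.50 UMIs of the 8 genes on average in PD1 KO and 1.82 in PD1 Het, with a median of 3 and 2 and a highest spot of 22 and 9. At least 1 UMI of any of the 8 was present in 94.4% of spots (92.6 to 95.9) in PD1 KO and in 80.2% (77.2 to 83.0) in PD1 Het. *Fos* had a UMI in 11.3% of spots in PD1 KO and 1.71% in PD1 Het, *Egr1* in 42.6% and 14.5%, and *Junb* in 16.6% and 6.19%. *Jun* had one in 59.0% of spots in PD1 KO and 38.7% in PD1 Het and *Dusp1* in 59.4% and 38.3%, whereas *Ier2* had one in 44.1% and 41.5% and *Atf3* in 4.41% and 4.35%. *Fosb* had one in 0.477% and 0.395%, which is 4 and 3 spots. Before thinning, *Fos* was found in 21.6% of spots in PD1 KO and 2.84% in PD1 Het, which also reflects the deeper PD1 KO spots.

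Clustering of UMIs in few spots was described by the variance divided by the mean, which is 1 for UMIs scattered at random. In PD1 KO it was 1.44 for *Fos*, and 1.15% of 2523 genes of like mean had a higher value. It was 1.45 for *Egr1* (2.09% of 1531 genes higher) and 1.20 for *Junb* (3.13% of 2523 genes). The value of 1.48 for *Atf3* comes from 42 UMIs in 37 spots, of which 1 spot held 5 and only 2 held more than 1. *Jun*, *Ier2* and *Dusp1* were close to even at 1.07, 1.099 and 1.04. At least 3 *Fos* UMIs were found in 5 PD1 KO spots, where a Poisson spread of the same mean gives 0.342, and at least 3 *Egr1* UMIs in 42 spots, where it gives 22.4. In PD1 Het the values were 1.20 for *Egr1* and 1.16 for *Junb*, and *Fos*, with 13 UMIs in 13 spots, was too sparse to describe. These values depend on the mean and so do not rank the sections. The variance beyond the mean, divided by the squared mean, had the other order. It was 0.70 in PD1 KO and 1.20 in PD1 Het for *Egr1*, and 1.02 and 2.39 for *Junb*. The PD1 Het value of *Junb* comes from 52 UMIs in 47 spots, of which only 4 held more than 1 and 1 held 3. The order for *Junb* thus rests on few spots.

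**Figure D3:**
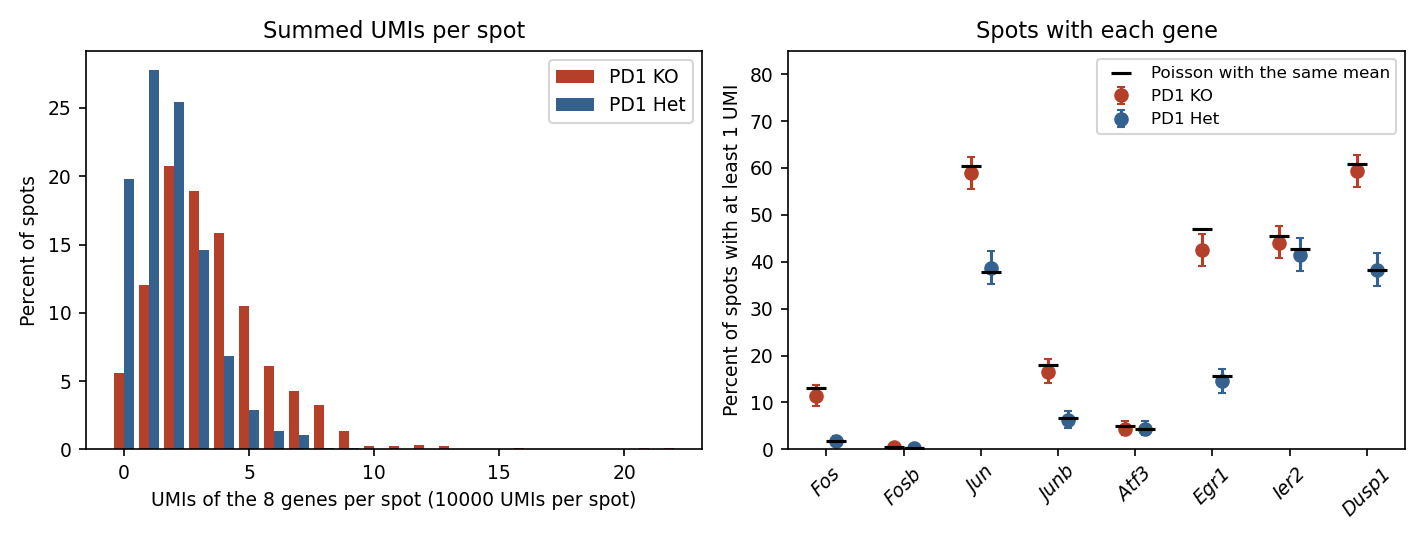
Left, percent of spots (thinned to 10000 UMIs) by their summed UMIs of the 8 genes in the PD1 KO and the PD1 Het section; right, percent of spots with at least 1 UMI of each gene with 95% Clopper-Pearson intervals, and dashes for the percent that a Poisson spread of the same mean gives. The PD1 KO distribution reaches 22 UMIs and the PD1 Het distribution 9, and *Egr1* in PD1 KO lies below its dash (42.6% against 47.0%).

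The genes coincided weakly within spots. Of the 28 pairs, 27 had a positive Pearson r in PD1 KO (mean over 20 draws; median 0.06) and 19 in PD1 Het (median 0.02). An r over 0.1 was found for 5 pairs in PD1 KO and 0 in PD1 Het. Counts from a single draw are not like those from a mean of draws. The draw used for other spot values, with all genes, had 10 pairs over 0.1 in PD1 KO and 2 in PD1 Het. Positive were 25 in PD1 KO and 19 in PD1 Het. With mitochondrial genes left out, in 1 draw of 7500 UMIs, 1 pair in PD1 KO and 3 in PD1 Het were over 0.1. In that draw 22 in PD1 KO and 17 in PD1 Het were positive. These single draws also differed in depth, so the part of mitochondrial genes in the counts was not tested. The highest mean r over the 20 draws was *Fos* with *Egr1*, at 0.24 in PD1 KO and 0.10 in PD1 Het (0.20 and 0.12 without mitochondrial genes). It was followed in PD1 KO by *Junb* with *Egr1*, *Egr1* with *Ier2*, *Fos* with *Junb* and *Fos* with *Dusp1*, at 0.11 to 0.12. In the draw used for other spot values, *Fos* with *Egr1* had a PD1 KO Pearson r of 0.22 but a Spearman rho of 0.04. Both genes were present in 43 of these PD1 KO spots, where independent genes give 40.4. In PD1 Het r was 0.04 and rho 0.06, with both genes in 4 spots, where independent genes give 1.88. Spots of 1 section share a library and neighbouring tissue, and counts this sparse limit r, so these values are descriptions of the sections.

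**Figure D4:**
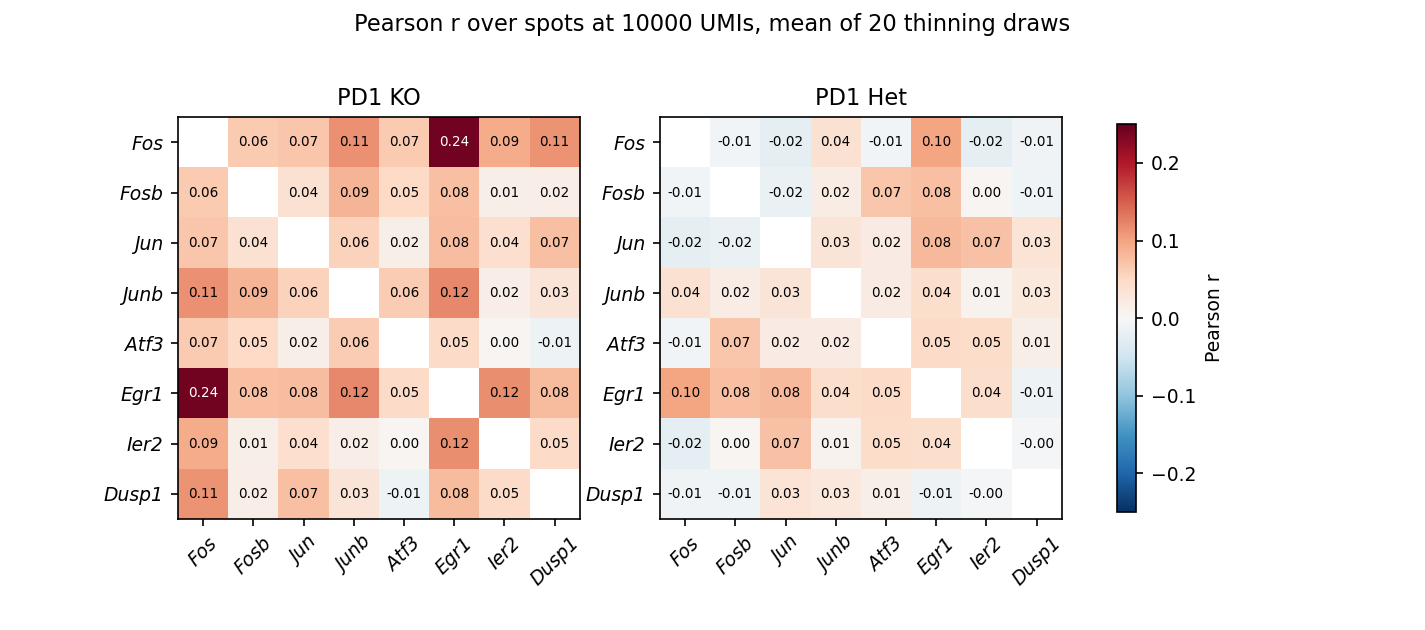
Pearson r over spots (mean of 20 random draws of 10000 UMIs per spot) for each pair of the 8 genes in the PD1 KO section (left) and the PD1 Het section (right), with colour from -0.25 to 0.25. *Fos* with *Egr1* has the highest value in both sections, 0.24 in PD1 KO and 0.10 in PD1 Het, and most other pairs lie near 0.

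Each gene was also set against the sum of the other 7. In PD1 KO the r of *Fos* averaged 0.25 over 20 draws (0.21 to 0.30), and a further draw with another seed gave 0.19. In the draw used for the other spot values it was 0.28, with a Spearman rho of 0.12. In PD1 Het it averaged 0.00905. That of *Egr1* averaged 0.22 in PD1 KO and 0.09 in PD1 Het. *Jun*, *Junb*, *Ier2* and *Dusp1* averaged between 0.12 and 0.13 in PD1 KO and between 0.02 and 0.10 in PD1 Het. *Atf3* averaged 0.05 in PD1 KO and 0.06 in PD1 Het. Without the 10 highest spots, no gene of either section had an r above 0.12, and 9 values moved by more than 0.05. The higher values of *Fos* and *Egr1* were thus not seen without these spots. Part of such a drop is built in, since the spots left out were the highest in the same genes. It was not set beside the drop for other genes. With mitochondrial genes left out before thinning to 7500 UMIs (1 draw), *Fos* had 0.20 in PD1 KO and -0.00299 in PD1 Het, and *Egr1* had 0.16 and 0.08. In PD1 KO the other 6 genes had 0.08 for *Jun*, *Fosb* and *Ier2*, 0.06 for *Junb*, 0.02 for *Dusp1* and 0.00708 for *Atf3*. In PD1 Het these 6 lay between -0.06 (*Dusp1*) and 0.07 (*Atf3*). Of the 6 in PD1 KO, only *Dusp1* lay outside its range over the 20 draws with all genes (0.07 to 0.17).

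Spots with *Fos* held more of the other genes in PD1 KO. The 95 thinned PD1 KO spots with at least 1 *Fos* UMI held 4.41 UMIs of the other 7 genes on average, against 3.22 in the 744 spots without. In PD1 Het the 13 spots with *Fos* held 1.69, against 1.80 in the 746 without. The 14 PD1 KO spots with at least 2 *Fos* UMIs held 7.43. For *Egr1* alone the means in these 14 spots and in those without *Fos* were 2.07 and 0.606, and for *Jun* 1.43 and 0.903. Without thinning, the PD1 KO spot with the most *Fos* held 12 *Fos* and 12 *Egr1* UMIs among 19699 UMIs, and the spot with the next most held 9 *Fos*, 12 *Egr1* and 5 *Junb* among 28480. The highest *Fos* count in any PD1 Het spot was 3. At least 5 of the 8 genes were present together in 40 thinned PD1 KO spots, where independent genes of the same shares give 23.4, and in 4 PD1 Het spots, where they give 1.18. No spot of either section held all 8.

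Place in the tissue was described with marker lists, since spot positions were not used here. Spots were ranked by the share of UMIs from scar matrix genes and split into 5 bins of like size. From the lowest bin to the highest, the mean summed UMIs of the 8 genes were 2.96, 3.10, 3.23, 3.72 and 4.48 in PD1 KO and 1.49, 1.68, 1.85, 1.84 and 2.24 in PD1 Het. The ratio between sections was thus 1.98, 1.85, 1.75, 2.02 and 2.00, similar in matrix-poor and matrix-rich spots. The highest bin held 52 of the 117 thinned *Fos* UMIs of PD1 KO, while the other 4 bins held 12 to 24 each. Mitochondrial UMIs made up 11.3% in the highest and 18.5% in the lowest bin in PD1 KO, and 19.2% and 29.8% in PD1 Het.

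Fibroblast markers gave the highest r with the summed genes among the cell type lists, 0.30 in PD1 KO and 0.21 in PD1 Het (mean of 20 draws), and scar matrix genes gave 0.22 and 0.21. Stressed cardiomyocyte genes gave 0.02 in PD1 KO and 0.14 in PD1 Het, ventricular cardiomyocyte markers -0.22 and -0.05, and endothelial markers 0.00228 and -0.00556. Without mitochondrial genes (1 draw) fibroblast markers gave 0.22 in PD1 KO and 0.15 in PD1 Het, scar matrix genes 0.18 and 0.15, stressed cardiomyocyte genes -0.01 and 0.08, ventricular markers -0.29 and -0.18, and endothelial markers -0.10 and -0.04. The list of other immediate early genes gave 0.36 in PD1 KO and 0.17 in PD1 Het, and 0.30 and 0.12 without mitochondrial genes. Single genes differed in order between the sections (means of 20 draws). With fibroblast markers, *Egr1* had 0.27 in PD1 KO and 0.17 in PD1 Het, *Fos* 0.25 and -0.00196, *Ier2* 0.06 and 0.13, and *Dusp1* 0.08 and 0.06.

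**Figure D5:**
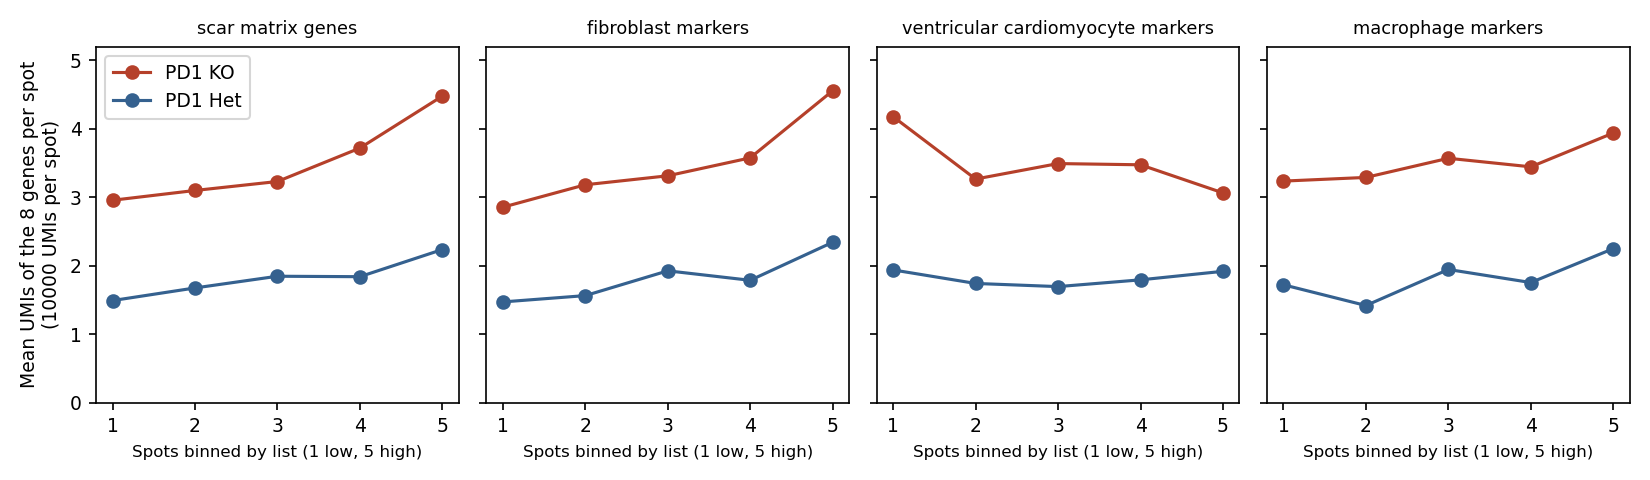
Mean summed UMIs of the 8 genes per spot (10000 UMIs per spot) in 5 bins of spots ranked by 4 marker lists, for the PD1 KO and the PD1 Het section. The PD1 KO line lies above the PD1 Het line in every bin, and both are highest in the bin richest in scar matrix (4.48 and 2.24) and fibroblast markers (4.56 and 2.34).

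Macrophage markers had an r of 0.30 with *Atf3* (0.19 to 0.43 over 20 draws) and of 0.24 with *Fos* (0.17 to 0.31) in PD1 KO, against 0.06 and -0.00315 in PD1 Het. One PD1 KO spot held 7 *Atf3* UMIs and 280 macrophage marker UMIs before thinning, or 12693 CPM of macrophage markers against 426 CPM in the whole PD1 KO section. In the draw used for the other spot values, r was 0.41 for *Atf3* and 0.29 for *Fos* with all spots. Without the spot with the most macrophage UMIs it was 0.12 and 0.21. Without the 5 such spots it was 0.14 and 0.19, and without the 10 such spots 0.09 and 0.10.

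The genes whose distribution over spots was most like that of the summed 8 genes were named by the lower of the r values of the 2 sections, over 9779 genes. They were *Fstl1* (0.175), *Actg1* (0.174), *Tmsb4x* (0.162), *Eef1a1* (0.158), *Postn* (0.153) and *Sparc* (0.151), followed by *Emp1*, *Actb*, *Fn1*, *Tagln*, *Ptma*, *Col15a1*, *Lum*, *Mfap4* and *Col1a2* at 0.141 or more. *Postn*, *Fn1*, *Sparc*, *Lum* and *Col1a2* encode matrix proteins, and *Actg1*, *Actb*, *Tmsb4x* and *Tagln* encode actins or actin-binding proteins. The median over all genes was -0.000358. All of these r values are weak and share the section's library and depth.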

How the data were processed

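The authors' deposited matrices hold unnormalised UMI counts (Space Ranger 1.1.0, per the file headers) for mm10 or GRCm38 (per the submitters' processing notes). The strand setting and gene annotation behind them: not given in the sources used here. Spots with at least 500 UMIs were kept and summed per section, and CPM was taken on all gene UMIs. Intervals are 95% exact Poisson, Clopper-Pearson or conditional intervals (scipy 1.17.1) and cover counting error only. A count of 0 allows 3 counts. With 1 section per group there was no test. Spots were thinned to 10000 UMIs to equalise depth. The likeness of a gene used log2(UMIs + 1). TMM factors came from edgeR 4.0.16. Coordinates and overlaps were taken from GENCODE (GRCm38).

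The 8 genes, the gene lists and the comparisons were chosen with earlier results of these data known. Named were the 8 genes, in each pathway list the 3 most counted genes and the 3 whose relative ratio was farthest from 0, and the 15 most alike over spots. Some of the genes this rule names are not reported here. Of the list symbols, Ahsp was not matched, and 4 were matched through RefSeq synonyms. The 2 sections share 225 spot barcodes, which are positions on the slide. The scripts were tested on simulated data.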

Additional observations from a re-analysis of the deposited data

How the results depend on the processing

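On the log2 CPM scale the summed genes had a ratio of 0.95, which became 0.64 with TMM factors, 0.64 with median-of-ratios factors and 0.77 on the total without mitochondrial genes. Those scalings put the median gene at 0.024, 0.022 and 0.15, against 0.33 with CPM, by their construction. In spots of like mitochondrial share the sum had 0.24 (under 10%), 0.51 (10 to 15%), 0.67 (15 to 20%), 0.64 (20 to 25%) and 0.63 (25 to 30%), and the cause was not tested. The number of genes past the line was 5, and 3 at 2-fold. It was 4 among genes with at least 300 UMIs, a filter that leaves out *Fos* and *Atf3*. *Ier2* turned direction with TMM (-0.014) and median-of-ratios factors (-0.016) and in 4 mitochondrial classes (-0.43, -0.094, -0.061 and -0.20). *Atf3* turned from 15 to 20% (-0.053) and *Fos* from 20 to 25% (-0.33). *Junb* had 0.89 with every spot weighted equally, against 1.41. Over all alternatives, 65 log2 ratios stayed inside the counting interval of the reported value, 35 left it in the same direction and 8 turned. Matrix-bin ratios were 1.86 to 1.98 with 3 bins and 1.73 to 1.89 with bins cut at the same shares. Of the Pearson r values, 43 of 142 moved by more than 0.05. Shares of spots depend on the depth chosen: 30 of 64 left their interval, most at 5000 UMIs or without thinning. At 5000 UMIs *Fosb* had no UMI left and gave no r.

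No paired analysis was possible because each group has 1 section and no test was made. The mitochondrial classes, the 20 draws, the pairs without mitochondrial genes and the runs without macrophage-rich spots were chosen after seeing the data. *Fos* in PD1 Het (26 UMIs), *Fosb* and *Atf3* are limited by depth. No section of a second animal was analysed here, so the spread between animals of either genotype is unknown.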
